A study of Mus musculus with 11 samples.

Results

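The Krueppel-like factors (KLFs) are transcription factors whose closely spaced zinc fingers bind GC-rich DNA, in particular CACCC and GC boxes, a specificity they share with the Sp factors. The family is commonly divided by its protein partners into a group that mostly activates transcription through histone acetyltransferases (here Klf2, Klf4, Klf6 and Klf7), a group that represses through the corepressor CtBP (Klf3 and Klf12), and a group that recruits the corepressor Sin3a (Klf9, Klf10, Klf11 and Klf13). In blood cells they are known for roles in quiescence and trafficking of lymphocytes (Klf2) and in monocyte formation (Klf4). The 10 genes described here were taken by symbol from a count table of 54347 genes, and all 10 were found and passed the filter on low counts.

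The libraries were made from bone marrow of female C57BL/6NTac wild-type mice, whose age is not given in the sources used here. Long-term haematopoietic stem cells (LT-HSCs), gated as CD150+CD48- cells within the lineage-negative, Sca-1-positive, c-Kit-positive compartment (LSK), were divided by the surface sialomucin endomucin into EMCN+ LT-HSC (4 libraries, mice 1 to 4) and EMCN- LT-HSC (3 libraries, mice 1, 2 and 4). Granulocyte-monocyte progenitors (GMP; 4 libraries, mice 1 to 4) were sorted from the same mice as a more differentiated population. The labels record no treatment, and the EMCN- library of mouse 3, absent here, was removed by the submitters for poor quality. The populations are defined by the sort alone.

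Totals ranged from 3.63 to 11.1 M estimated counts per library, so that 1 count was worth 0.0697 to 0.235 CPM. CPM is the count scaled to a common library size, here with factors from the trimmed mean of M values (TMM). The defining markers fitted the sorts: the summed level of 8 LT-HSC markers was 1217 to 1421 CPM in EMCN+ LT-HSC, 837 to 972 CPM in EMCN- LT-HSC and 27.8 to 31.9 CPM in GMP. The 9 GMP markers summed to 26.1 to 32.4 CPM in EMCN+ LT-HSC, 23.3 to 32.7 CPM in EMCN- LT-HSC and 15470 to 18780 CPM in GMP. Neutrophil markers summed to 1.39 to 2.35 CPM in EMCN+ LT-HSC and 0.705 to 2.58 CPM in EMCN- LT-HSC, against 115 to 516 CPM in GMP. Erythroid markers summed to 15.7 to 19.5, 9.04 to 12.2 and 10.1 to 53.4 CPM in the EMCN+, the EMCN- and the GMP libraries. B cell markers summed to 7.82 to 11.7, 6.58 to 13.9 and 18.9 to 25.5 CPM, and T cell markers to 2.74 to 7.13, 4.68 to 6.58 and 1.82 to 2.24 CPM, in the same order of groups.

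The promoters shown belong to the genes with a listed promoter that differed most between LT-HSCs and GMP in each direction (Klf12 and Klf6 higher, Klf4 and Klf13 lower) and to Klf2, the member whose window holds a MEF2 site. Sequences are from RefSeq on GRCm38.p6, written 5′ to 3′ on the strand of the gene, and cover at most the 250 bases before the annotated start, without bases inside annotated exons of the gene. Capitals mark CACCC boxes (CACCC or its reverse complement GGGTG) and GC boxes (GGGCGG or CCGCCC) in the first 4 sequences, with overlapping matches run together, and the MEF2 site in Klf2. The stretches are chr14:100149797-100150046 (minus strand, within the annotated span of Klf12 and upstream of its RefSeq start), chr13:5861239-5861481 (plus strand, Klf6), chr4:55532476-55532725 (minus strand, Klf4), chr7:63938916-63939165 (minus strand, Klf13) and chr8:72318812-72319032 (plus strand, Klf2).
Klf12: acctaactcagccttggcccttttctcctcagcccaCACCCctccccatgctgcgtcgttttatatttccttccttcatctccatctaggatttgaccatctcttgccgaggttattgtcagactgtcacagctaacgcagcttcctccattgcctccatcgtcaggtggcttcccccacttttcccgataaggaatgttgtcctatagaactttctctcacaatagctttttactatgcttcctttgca
Klf6: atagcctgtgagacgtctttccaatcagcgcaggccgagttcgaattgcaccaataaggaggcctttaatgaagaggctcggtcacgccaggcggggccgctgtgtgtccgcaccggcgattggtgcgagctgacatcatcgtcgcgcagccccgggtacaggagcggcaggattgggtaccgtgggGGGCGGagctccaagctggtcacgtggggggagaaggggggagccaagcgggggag
Klf4: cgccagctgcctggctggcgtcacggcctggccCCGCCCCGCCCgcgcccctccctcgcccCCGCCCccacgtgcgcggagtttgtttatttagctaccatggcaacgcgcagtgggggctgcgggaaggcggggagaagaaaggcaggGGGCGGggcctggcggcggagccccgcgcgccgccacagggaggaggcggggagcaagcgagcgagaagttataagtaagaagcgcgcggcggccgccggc
Klf13: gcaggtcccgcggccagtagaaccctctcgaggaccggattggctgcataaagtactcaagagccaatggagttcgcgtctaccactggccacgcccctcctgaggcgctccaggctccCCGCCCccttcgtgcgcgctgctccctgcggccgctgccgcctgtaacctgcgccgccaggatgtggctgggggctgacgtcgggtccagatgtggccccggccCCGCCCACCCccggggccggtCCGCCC
Klf2: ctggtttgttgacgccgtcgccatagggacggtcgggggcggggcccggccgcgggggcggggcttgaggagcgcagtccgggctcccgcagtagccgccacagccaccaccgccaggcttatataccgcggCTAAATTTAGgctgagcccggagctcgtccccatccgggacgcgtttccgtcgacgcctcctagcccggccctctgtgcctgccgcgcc

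Promoter windows were listed for 9 of the 10 genes. A GC box was found in 7 of the 9 windows, against 32.7% of 32851 mouse promoter windows of the same length. A CACCC box was found in 6 of the 9, against 52.0% of all windows. The GC content of the windows was 59.2% to 78.4% for 8 of the genes and 48.0% for Klf12, against a median of 52.4% over all windows, and GC boxes are more frequent in GC-rich sequence. The Klf12 window held 1 CACCC box and no GC box, the Klf4 window held 4 GC boxes and no CACCC box, and the Klf13 window held 3 GC boxes and 1 CACCC box. CCAAT boxes (CCAAT or ATTGG) were found in the windows of Klf6, Klf9, Klf11 and Klf13, against 33.8% of all windows. The MEF2 site of Klf2 began 118 bases before the start. Such a site was found in 2.92% of all windows and in that of no other member, and the CArG box, the site of serum response factor, in none of the 9, against 1.47% of all windows.

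Of the 10 genes, 6 were higher and 2 were lower in EMCN+ LT-HSC than in GMP at an adjusted p under 0.05 in edgeR's quasi-likelihood test with Benjamini-Hochberg adjustment over 14915 genes. The background for these counts is wide, since 61.3% of all genes tested were called in this comparison, 31.9% higher and 29.4% lower. In EMCN- LT-HSC versus GMP the same test also gave 6 higher and 2 lower genes, where 52.7% of all genes were called, 28.3% higher and 24.4% lower. The higher genes were Klf3, Klf6, Klf9, Klf10, Klf11 and Klf12 and the lower genes Klf4 and Klf13 in both comparisons, which share the 4 GMP libraries. Between EMCN+ and EMCN- LT-HSC none of the 10 genes was called in this main fit, against 1.96% of all genes (0.771% higher and 1.19% lower). The main fit had no term for the mouse, and some other edgeR settings called Klf6, as given below. The libraries of EMCN+ LT-HSC did not overlap with those of GMP for 8 of the 10 genes, 6 above and 2 below, against 57.3% of all genes (29.6% above and 27.7% below). Those of EMCN- LT-HSC did not overlap with GMP for 6 genes, 4 above and 2 below, against 54.4% of all genes (28.7% above and 25.8% below). The median log2 fold change of the 10 genes was 0.96 in EMCN+ LT-HSC versus GMP, where that of all genes was 0.04. It was 0.58 in EMCN- LT-HSC versus GMP, where that of all genes was 0.03.

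Summed over the 10 genes, EMCN+ LT-HSC held 284 to 323 CPM, EMCN- LT-HSC 242 to 258 CPM and GMP 178 to 209 CPM, and the ranges of the 3 groups did not overlap. In bulk libraries such as these, fewer cells that express a gene and less RNA of it per cell cannot be told apart. Scaling bears on the comparisons with GMP. TMM factors were 1.10 to 1.31 in the LT-HSC libraries and 0.668 to 0.757 in the GMP libraries, and with plain total-count scaling the median of all genes moved by 0.83 in EMCN+ LT-HSC versus GMP and by 0.72 in EMCN- LT-HSC versus GMP on the log2 scale. Of the genes called, 52.0% were higher in EMCN+ LT-HSC than in GMP under TMM and 82.7% under total-count scaling, and 53.7% and 84.8% were higher in EMCN- LT-HSC than in GMP.

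**Figure D1:**
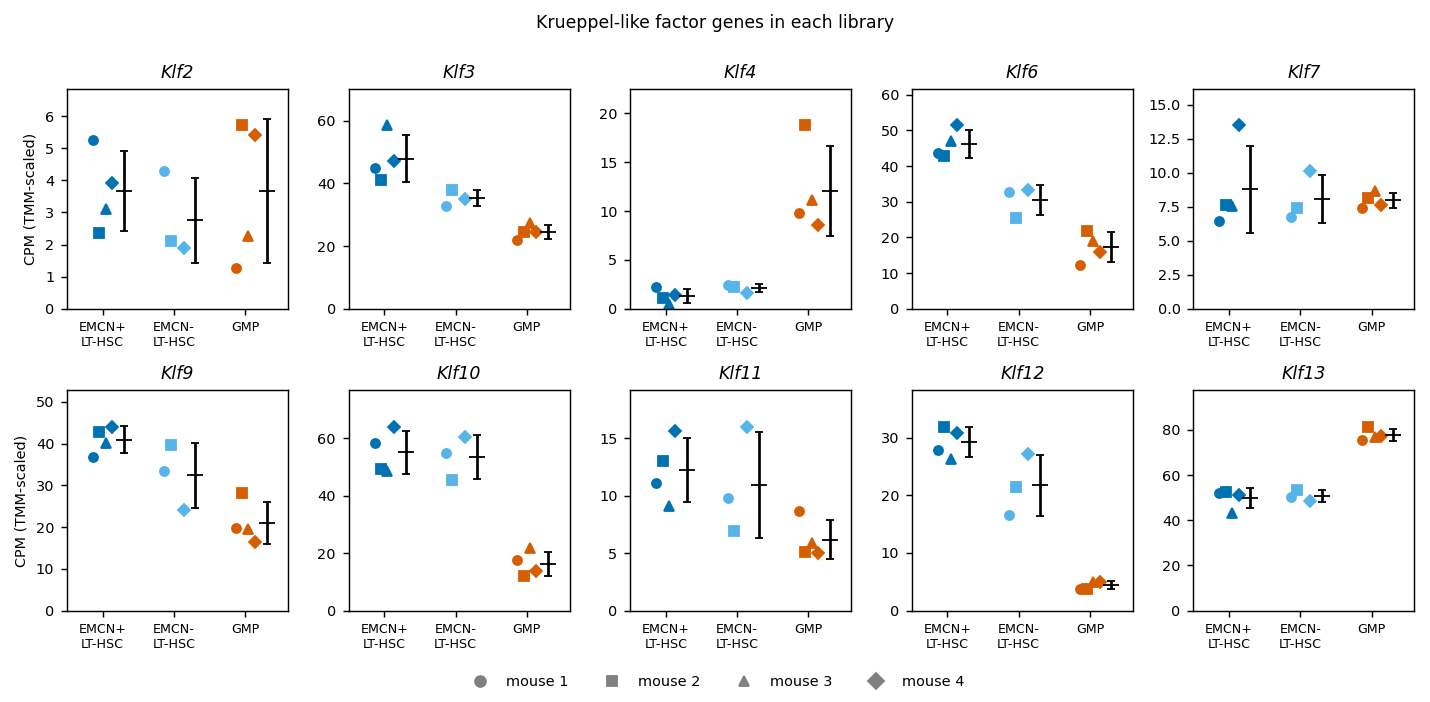
TMM-scaled CPM (linear axis, one scale per gene) of the 10 genes in each library, with EMCN+ LT-HSC on the left, EMCN- LT-HSC in the middle and GMP on the right; marker shapes give the mouse, and the black line and bar give the mean and SD. Klf12 and Klf10 stand well above GMP in both LT-HSC fractions, Klf4 and Klf13 stand below GMP (Klf13 not under total-count scaling), and Klf2 and Klf7 overlap in all groups.

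Both CtBP-binding repressors, Klf3 and Klf12, were higher in both LT-HSC fractions than in GMP. Klf12 (ENSMUSG00000072294.5, GRCm38 chr14:99870632-100284679, minus strand), first described as a repressor of the AP-2alpha gene, had 27.8, 31.9, 26.4 and 30.9 CPM in EMCN+ LT-HSC, 16.7, 21.5 and 27.2 CPM in EMCN- LT-HSC and 3.79, 3.75, 5.01 and 5.04 CPM in GMP. The lowest LT-HSC library was thus more than 3 times the highest GMP library. Klf12 was 6.69-fold higher in EMCN+ LT-HSC than in GMP (log2 fold change 2.74 ± 0.19, SE, adjusted p = 1.11e-10) and 4.95-fold higher in EMCN- LT-HSC than in GMP (2.31 ± 0.21, adjusted p = 7.61e-09). Between the LT-HSC fractions the log2 fold change was 0.43 (95% interval 0.06 to 0.81, adjusted p = 0.272), and the ranges overlapped through EMCN- replicate 4.

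Klf3 (ENSMUSG00000029178.14, chr5:64803388-64832901, plus strand), the basic KLF that represses many sites bound by the erythroid factor Klf1, had 44.9, 41.1, 58.5 and 47.1 CPM in EMCN+ LT-HSC, 32.7, 37.8 and 35.0 CPM in EMCN- LT-HSC and 21.9, 24.5, 27.3 and 24.4 CPM in GMP. The 3 groups did not overlap in any pair. The log2 fold change was 0.97 ± 0.13 in EMCN+ LT-HSC versus GMP (adjusted p = 1.75e-06) and 0.52 ± 0.14 in EMCN- LT-HSC versus GMP (adjusted p = 0.00416). Between the fractions it was 0.44 ± 0.14 (95% interval 0.15 to 0.73), with an adjusted p of 0.119 that did not pass the threshold. The exons of Klf3 overlap those of Gm20033 on the opposite strand, which had 26 counts over all 11 libraries against 2944 for Klf3.

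Among the Sin3a-binding members, Klf9, Klf10 and Klf11 were higher in both LT-HSC fractions than in GMP, whereas Klf13 was lower under TMM scaling and not under total-count scaling. Klf10 (ENSMUSG00000037465.10, chr15:38291463-38300706, minus strand), also known as the TGF-beta-inducible early gene TIEG, had 58.4, 49.4, 48.6 and 63.9 CPM in EMCN+ LT-HSC, 54.9, 45.4 and 60.4 CPM in EMCN- LT-HSC and 17.5, 12.1, 21.6 and 13.8 CPM in GMP. Every LT-HSC library was above every GMP library, and the LT-HSC fractions overlapped. Klf10 was 3.40-fold higher in EMCN+ LT-HSC than in GMP (log2 fold change 1.77 ± 0.16, adjusted p = 6.8e-09) and 3.31-fold higher in EMCN- LT-HSC than in GMP (1.73 ± 0.17, adjusted p = 3.87e-08). The 95% interval of the difference between the LT-HSC fractions was -0.30 to 0.37 on the log2 scale (adjusted p = 0.954).

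Klf9 (ENSMUSG00000033863.2, chr19:23141226-23168134, plus strand), which glucocorticoids and thyroid hormone induce in many tissues, had 36.8, 42.8, 40.1 and 44.0 CPM in EMCN+ LT-HSC, 33.4, 39.6 and 24.2 CPM in EMCN- LT-HSC and 19.7, 28.2, 19.6 and 16.4 CPM in GMP. EMCN+ LT-HSC stood above GMP in every library, while EMCN- replicate 4 lay below GMP replicate 2. The log2 fold change was 0.96 ± 0.17 in EMCN+ LT-HSC versus GMP (adjusted p = 3.8e-05) and 0.63 ± 0.18 in EMCN- LT-HSC versus GMP (adjusted p = 0.0058). The second call was lost when EMCN- replicate 2 was left out (adjusted p = 0.0833).

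Klf11 (ENSMUSG00000020653.12, chr12:24651274-24662789, plus strand), the paralogue of Klf10, was a gene of lower counts with 9.13 to 15.6 CPM in EMCN+ LT-HSC, 6.94 to 16.0 CPM in EMCN- LT-HSC and 5.04 to 8.68 CPM in GMP. It was higher in EMCN+ LT-HSC than in GMP by 0.97 ± 0.27 on the log2 scale (adjusted p = 0.00403). In EMCN- LT-HSC versus GMP the difference was 0.79 ± 0.30 (adjusted p = 0.0298), with ranges that overlapped. Without EMCN- replicate 4 the log2 fold change was 0.43 and the call was lost (adjusted p = 0.268). It was also lost, at log2 fold changes of 0.70 to 0.77, without GMP replicate 2 (adjusted p = 0.076), 3 (0.0559) or 4 (0.0749), and with the mouse as a block (0.67, adjusted p = 0.0648).

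Klf13 (ENSMUSG00000052040.10, chr7:63886351-63938915, minus strand), known as an activator of the chemokine gene Ccl5 in T cells, had 52.0, 52.4, 43.2 and 51.2 CPM in EMCN+ LT-HSC, 50.5, 53.4 and 48.4 CPM in EMCN- LT-HSC and 75.6, 81.3, 76.7 and 77.4 CPM in GMP. It varied little between replicates, and all 7 LT-HSC libraries were below all 4 GMP libraries. Klf13 was 1.56-fold lower in EMCN+ LT-HSC than in GMP (log2 fold change -0.65 ± 0.10, adjusted p = 1.13e-05) and 1.53-fold lower in EMCN- LT-HSC than in GMP (-0.61 ± 0.11, adjusted p = 9.08e-05). This direction depended on the scaling: with total counts the log2 fold changes were 0.18 (adjusted p = 0.166) and 0.11 (adjusted p = 0.489). Relative to the median of all genes under that scaling they were -0.68 and -0.65. The LT-HSC fractions differed by a log2 fold change of -0.03 (95% interval -0.26 to 0.20).

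Among the activating members, Klf6 was higher and Klf4 was lower in both LT-HSC fractions than in GMP, and Klf2 and Klf7 were not called. Klf6 (ENSMUSG00000000078.7, chr13:5861482-5870394, plus strand), a broadly expressed KLF that the mouse embryo needs for yolk sac blood formation, had 43.6, 42.7, 46.9 and 51.4 CPM in EMCN+ LT-HSC, 32.6, 25.5 and 33.4 CPM in EMCN- LT-HSC and 12.3, 21.9, 19.1 and 15.9 CPM in GMP. The levels stepped down from EMCN+ LT-HSC through EMCN- LT-HSC to GMP without overlap. Klf6 was 2.67-fold higher in EMCN+ LT-HSC than in GMP (log2 fold change 1.42 ± 0.16, adjusted p = 1.18e-07) and 1.76-fold higher in EMCN- LT-HSC than in GMP (0.82 ± 0.17, adjusted p = 0.000433).

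Klf4 (ENSMUSG00000003032.8, chr4:55527143-55532466, minus strand), a reprogramming factor that promotes monocyte differentiation, was near the lower end of detection in LT-HSCs. It had 2.18, 1.12, 0.446 and 1.37 CPM in EMCN+ LT-HSC (22, 16, 4 and 7 counts), 2.45, 2.26 and 1.64 CPM in EMCN- LT-HSC (16, 14 and 7 counts) and 9.78, 18.8, 11.2 and 8.58 CPM in GMP (62, 115, 49 and 46 counts). The highest LT-HSC library, at 2.45 CPM, was far below the lowest GMP library, at 8.58 CPM. Klf4 was 9.36-fold lower in EMCN+ LT-HSC than in GMP (log2 fold change -3.23 ± 0.40, adjusted p = 4.52e-07) and 5.60-fold lower in EMCN- LT-HSC than in GMP (-2.48 ± 0.43, adjusted p = 5.66e-05). Monocyte and macrophage markers moved the same way: the 6 genes summed to 3.00 to 5.96 CPM in EMCN+ LT-HSC, 4.70 to 6.43 CPM in EMCN- LT-HSC and 404 to 515 CPM in GMP, and 5 of 5 tested were lower in each LT-HSC fraction. Ly6c2 had 4 counts over the EMCN+ LT-HSC libraries, 0 over the EMCN- LT-HSC libraries and 7827 over the GMP libraries. The part of such cells in the Klf4 difference was not tested.

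Klf2 (ENSMUSG00000055148.7, chr8:72319033-72321656, plus strand), which keeps T cells quiescent and responds to blood flow in endothelium, had 5.26, 2.37, 3.12 and 3.91 CPM in EMCN+ LT-HSC, 4.28, 2.10 and 1.88 CPM in EMCN- LT-HSC and 1.26, 5.71, 2.28 and 5.41 CPM in GMP. The GMP libraries of mice 2 and 4 were the highest of all 11 and that of mouse 1 the lowest, and the groups overlapped throughout. The interval of the log2 fold change was -0.97 to 0.95 in EMCN+ LT-HSC versus GMP (adjusted p = 0.984) and -1.48 to 0.69 in EMCN- LT-HSC versus GMP (adjusted p = 0.556), and differences within these bounds were not resolved. In GMP the summed level of 16 immediate early genes was 198, 335, 158 and 310 CPM in replicates 1 to 4, and the 2 GMP libraries with the higher Klf2 had the higher sums. The LT-HSC libraries did not share that order: the sums were 538, 496, 340 and 743 CPM in EMCN+ replicates 1 to 4 and 532, 599 and 595 CPM in EMCN- replicates 1, 2 and 4, where replicate 1 had the highest Klf2 of each fraction. Endothelial markers, relevant because Klf2 is abundant in endothelium, summed to 197 to 248 CPM in EMCN+ LT-HSC, 175 to 197 CPM in EMCN- LT-HSC and 79.7 to 98.4 CPM in GMP. The sum in EMCN+ LT-HSC came mainly from Tie1 (mean 83.6 CPM), Pecam1 (46.0 CPM), Esam (41.8 CPM) and Egfl7 (32.8 CPM). Of the 7 tested, 4 (Esam, Tie1, Kdr and Egfl7) were higher and 2 (Pecam1 and Flt1) lower in each LT-HSC fraction than in GMP; Pecam1 was not lower under total-count scaling (0.42 and 0.37). Over the EMCN+, the EMCN- and the GMP libraries, Cdh5 had 30, 3 and 0 counts, Cldn5 45, 0 and 0, Plvap 8, 9 and 22, and Flt1 22, 7 and 201. The part of endothelial cells in the Klf2 values was not tested.

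Klf7 (ENSMUSG00000025959.13, chr1:64029447-64122282, minus strand), best known from axon growth in neurons, had 6.45 to 13.5 CPM in EMCN+ LT-HSC, 6.73 to 10.1 CPM in EMCN- LT-HSC and 7.41 to 8.65 CPM in GMP. The ranges lay within one another, and the highest LT-HSC values were both from mouse 4. The log2 fold change was 0.12 (95% interval -0.41 to 0.64) in EMCN+ LT-HSC versus GMP and 0.01 (-0.57 to 0.60) in EMCN- LT-HSC versus GMP. Klf7 was called in both only under total-count scaling, at 0.93 (adjusted p = 0.00187) and 0.73 (adjusted p = 0.0226), close to the shift of the median of all genes. Its exons overlap Gm13748 on the opposite strand, which had 1 count in all against 620 for Klf7.

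**Figure D2:**
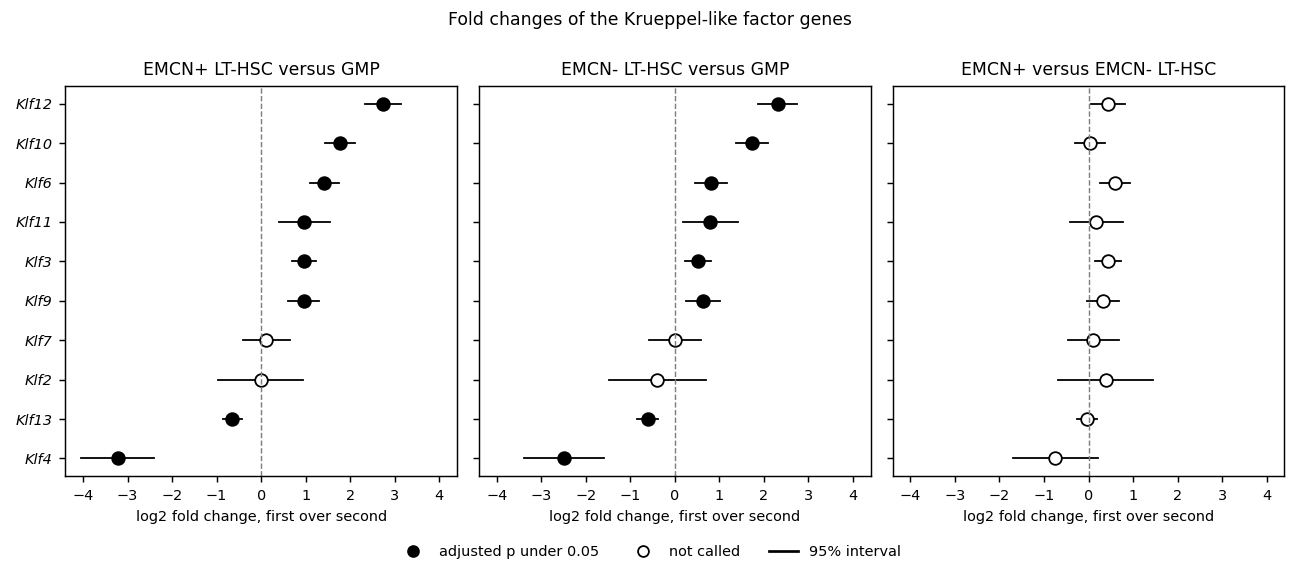
Log2 fold changes of the 10 genes in EMCN+ LT-HSC versus GMP, EMCN- LT-HSC versus GMP and EMCN+ versus EMCN- LT-HSC from edgeR with TMM scaling; filled points have an adjusted p under 0.05 and lines are 95% intervals. In both comparisons with GMP, Klf12 lies farthest to the right (2.74 and 2.31) and Klf4 farthest to the left (-3.23 and -2.48), and Klf13 lies left of 0, which it did not under total-count scaling; no point is filled between the LT-HSC fractions.

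Between EMCN+ and EMCN- LT-HSC the smallest adjusted p among the 10 genes was that of Klf6, with a log2 fold change of 0.60 ± 0.17 (95% interval 0.25 to 0.94), or 1.51-fold, and an adjusted p of 0.0688. All 4 EMCN+ LT-HSC libraries lay above all 3 EMCN- LT-HSC libraries for Klf6 and for Klf3, and for no other member, whereas 7.25% of all genes had such a separation in this direction, 6.99% in the other and 14.2% in either. Over the 10 genes the main edgeR fit called none, with 3 at an unadjusted p under 0.05 (Klf3, Klf6 and Klf12), against 2076 of all 14915 genes (13.9%). DESeq2 called 1, Klf6 (adjusted p = 0.0312), and limma-voom none. Klf6 also passed the threshold when the libraries of the LT-HSC fractions were fitted alone (adjusted p = 0.0339) and with the mouse as a block over the 3 complete pairs (adjusted p = 0.00776), and over all alternatives its adjusted p ranged from 0.00776 to 0.266. DESeq2 and the block over complete pairs also called more of all genes than the main fit did, with totals in the last section.

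Within the 3 mice that gave both fractions, Klf6 was higher in EMCN+ LT-HSC in 3 of 3, by 0.42 to 0.74 in log2 CPM. Klf3 (0.12 to 0.45), Klf12 (0.18 to 0.73), Klf2 (0.16 to 0.95), Klf9 (0.11 to 0.85) and Klf10 (0.08 to 0.12) were also higher in 3 of 3 mice. Klf4 was lower in EMCN+ LT-HSC in 3 of 3 mice, with differences of -0.86 to -0.15. Klf7, Klf11 and Klf13 differed in sign between mice. The share of all genes with the same sign in 3 of 3 mice was not computed, so these counts have no background. The fitted intervals of the less abundant genes were wide: the log2 fold change between the fractions was -0.74 (95% interval -1.70 to 0.21) for Klf4 and 0.38 (-0.69 to 1.45) for Klf2. It was 0.33 (-0.04 to 0.69) for Klf9, 0.18 (-0.42 to 0.77) for Klf11 and 0.11 (-0.47 to 0.68) for Klf7, and the adjusted p of these 5 genes lay between 0.426 and 0.922. With 8 of 10 fold changes above 0 the median over the genes was 0.25, against 0.00 for all genes. Marker sums also differed between the fractions: LT-HSC markers were higher in EMCN+ LT-HSC (1217 to 1421 CPM) than in EMCN- LT-HSC (837 to 972 CPM), with 4 of 8 called. Megakaryocyte markers were lower, at 24.1 to 37.8 CPM in EMCN+ LT-HSC against 64.1 to 102 CPM in EMCN- LT-HSC and 10.9 to 22.2 CPM in GMP, with 2 of 3 tested called. Their part in the values of Klf3 and Klf6 was not tested.

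**Figure D3:**
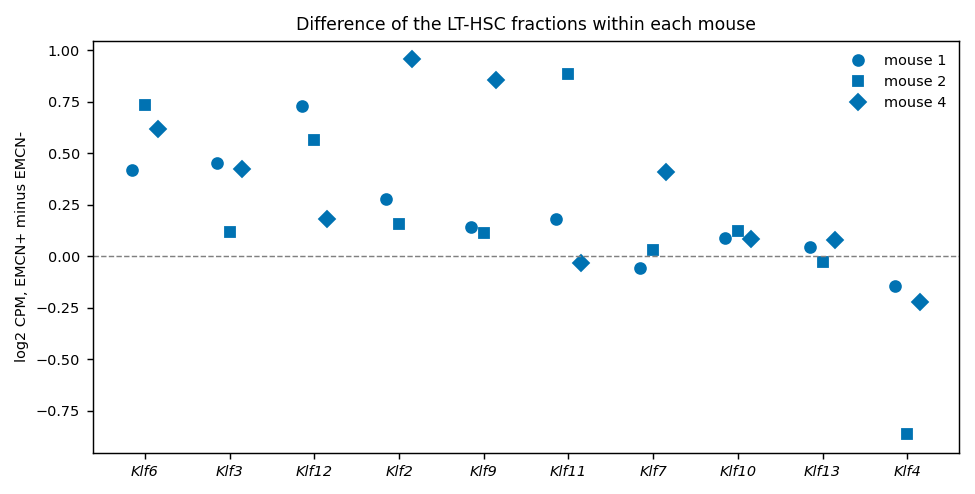
Difference in log2 CPM, EMCN+ minus EMCN- LT-HSC, for each gene within mice 1, 2 and 4. The points of Klf6 lie between 0.42 and 0.74, those of Klf10 between 0.08 and 0.12, and those of Klf4 below 0.

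Levels of different genes were compared per kilobase of mean annotated transcript length. In EMCN+ LT-HSC the order was Klf10 (34.8 ± 4.67 CPM per kilobase, SD, n = 4), Klf3 (25.5), Klf13 (23.6), Klf6 (22.6), Klf12 (16.5), Klf9 (14.6), Klf11 (8.43), Klf7 (2.72), Klf2 (1.98) and Klf4 (0.870). Neighbours in that order overlapped except Klf6 and Klf12, Klf9 and Klf11, and Klf11 and Klf7. In EMCN- LT-HSC the order was Klf10 (33.8 ± 4.80, n = 3), Klf13 (24.1), Klf3 (18.7), Klf6 (14.9), Klf12 (12.3), Klf9 (11.6), Klf11 (7.51), Klf7 (2.50), Klf2 (1.49) and Klf4 (1.44). There the neighbours Klf10 and Klf13, Klf13 and Klf3, Klf3 and Klf6, and Klf11 and Klf7 did not overlap.

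In GMP the order per kilobase was Klf13 (37.0 ± 1.18, n = 4), Klf3 (13.1), Klf10 (10.3), Klf6 (8.45), Klf4 (8.21), Klf9 (7.49), Klf11 (4.25), Klf12 (2.48), Klf7 (2.47) and Klf2 (1.99), and the neighbours that did not overlap were Klf13 and Klf3, and Klf11 and Klf12. Klf10 was first and Klf4 last in both LT-HSC fractions, while Klf13 was first in GMP. Those 3 places held when the longest transcript replaced the mean length, although 26 of the 30 values moved by more than 1 SD.

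**Figure D4:**
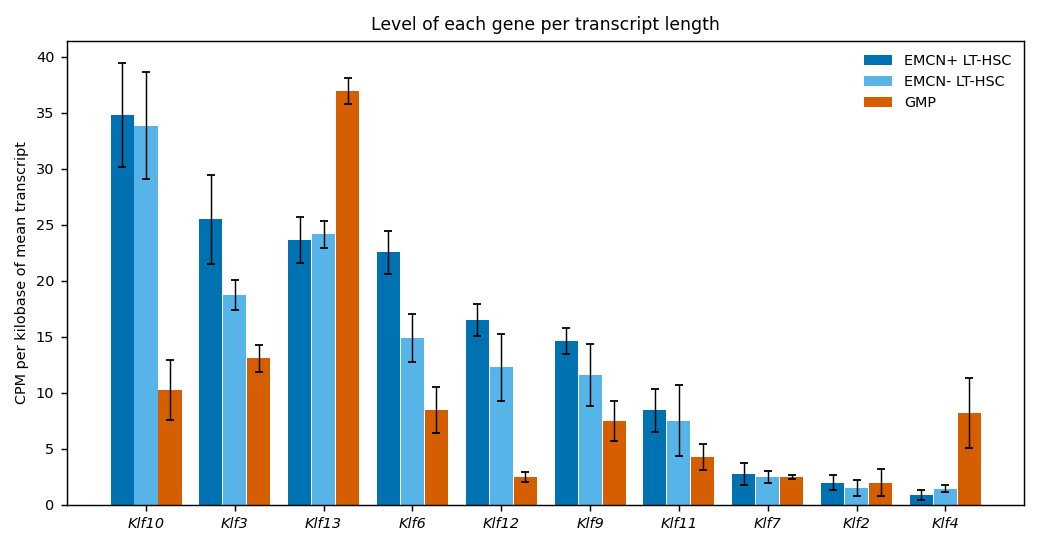
CPM per kilobase of mean transcript length for each gene in the EMCN+ fraction, the EMCN- fraction and GMP (bars from 0, mean; error bars, SD). Klf10 leads in the LT-HSC fractions at 34.8 and 33.8, and Klf13 leads in GMP at 37.0.

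The counts called in this list and in those below are to be read beside the share of all genes called. That share was 61.3% in EMCN+ LT-HSC versus GMP (31.9% higher and 29.4% lower). In EMCN- LT-HSC versus GMP it was 52.7% (28.3% higher and 24.4% lower). The lists were not tested as sets. Of the 16 other KLF and SP genes, 8 passed the filter on low counts. In EMCN+ LT-HSC versus GMP 3 were higher and 1 was lower, with a median log2 fold change of 0.15, and in EMCN- LT-HSC versus GMP 3 were higher, with a median of 0.11. Sp4 averaged 36.7 ± 3.61 CPM in EMCN+ LT-HSC, 27.3 ± 3.07 CPM in EMCN- LT-HSC and 10.3 ± 1.71 CPM in GMP (log2 fold changes over GMP 1.83 and 1.40, adjusted p = 1.52e-09 and 3.73e-07). Sp1, the ubiquitous GC-box activator, was higher by 0.58 and 0.53 (adjusted p = 3.91e-05 and 0.000334). Klf8, the third CtBP-binding KLF, was higher by 1.17 and 1.07 (adjusted p = 0.00267 and 0.0112), the direction of Klf3 and Klf12. Klf1, the erythroid KLF, was lower in EMCN+ LT-HSC than in GMP by a log2 fold change of -3.30 (adjusted p = 0.00118) on 11 and 63 counts.

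Proteins that KLFs bind were counted next. Of 9 corepressors and coactivators, 6 were higher and 1 was lower in EMCN+ LT-HSC than in GMP (median 0.36), and 5 were higher in EMCN- LT-HSC (median 0.40). Sin3a, partner of Klf9, Klf10, Klf11 and Klf13, was higher by 0.64 and 0.57 (adjusted p = 2.68e-05 and 0.000301), and the acetyltransferase Crebbp by 1.35 and 1.08 (adjusted p = 6.8e-10 and 7.75e-08).

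Among 11 genes known to act upstream of Klf2 and Klf4, 6 were higher in each LT-HSC fraction than in GMP and none was lower, with medians of 0.41 and 0.39. The list was not split into genes that raise and genes that lower Klf2 or Klf4. The count of higher genes therefore gives no direction of input to them. Foxo1, a forkhead factor that induces Klf2 in T cells, averaged 28.0 ± 1.82 CPM in EMCN+ LT-HSC, 17.9 ± 4.54 CPM in EMCN- LT-HSC and 4.27 ± 1.09 CPM in GMP (log2 fold changes over GMP 2.73 and 2.09, adjusted p = 3.08e-10 and 8.3e-08). Foxo3 was higher by 1.78 and 1.71 (adjusted p = 6.74e-12 and 6.06e-11). Mef2c was higher by 1.34 and 1.42 (adjusted p = 2.48e-09 and 4.69e-09) and Mef2a by 1.10 and 1.11 (adjusted p = 2.49e-07 and 8.82e-07). Klf2 itself, as given above, was not called in either comparison.

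Known KLF target genes split in direction. Of 11 tested, 5 were higher and 5 lower in EMCN+ LT-HSC than in GMP, and 5 were higher and 4 lower in EMCN- LT-HSC than in GMP. S1pr1, the sphingosine receptor that Klf2 induces in T cells, averaged 14.0 ± 3.01 CPM in EMCN+ LT-HSC, 12.8 ± 2.15 CPM in EMCN- LT-HSC and 1.46 ± 1.13 CPM in GMP (log2 fold changes over GMP 3.22 and 3.10, adjusted p = 1.63e-07 and 8.12e-07). Eng, the TGF-beta co-receptor endoglin and a Klf6 target in endothelium, was higher over GMP by 3.07 and 2.68 (adjusted p = 1.52e-13 and 4.38e-12).

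Genes of the signals that induce Klf9, Klf10 and Klf11 were counted beside them. Of 9 tested TGF-beta pathway genes, 7 were higher and 1 was lower in each LT-HSC fraction than in GMP, with medians of 1.15 and 1.04. The receptor Tgfbr2 was higher by 1.64 and 1.57 (adjusted p = 1.72e-08 and 1.35e-07) and the Smad corepressor Ski by 1.91 and 1.61 (adjusted p = 3.79e-11 and 2.62e-09). The ligand Tgfb1 averaged 67.1 ± 5.66 CPM in EMCN+ LT-HSC, 100 ± 23.5 CPM in EMCN- LT-HSC and 157 ± 10.2 CPM in GMP. It was lower in EMCN+ LT-HSC than in GMP (-1.22, adjusted p = 1.85e-08), lower in EMCN- LT-HSC than in GMP under TMM (-0.65, adjusted p = 0.000282) and not under total-count scaling (0.09, adjusted p = 0.636), and lower in EMCN+ than in EMCN- LT-HSC (-0.58, adjusted p = 0.0215; -0.48, adjusted p = 0.145 under total-count scaling).

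Of 7 glucocorticoid response genes, 4 were higher and 2 lower in EMCN+ LT-HSC than in GMP (median 0.59), and 4 were higher and 1 lower in EMCN- LT-HSC (median 0.61). Tsc22d3, or GILZ, was higher by 2.14 and 2.11 (adjusted p = 3.29e-11 and 2.07e-10). Zbtb16 was lower by log2 fold changes of -1.82 and -1.07 (adjusted p = 1.6e-07 and 0.000414), and the second was -0.37 under total-count scaling (adjusted p = 0.182). Of 13 tested immediate early genes, 8 were higher and 1 was lower in EMCN+ LT-HSC than in GMP (median 0.98), and 8 were higher in EMCN- LT-HSC (median 1.23). Egr1 averaged 50.4 ± 13.6 CPM in EMCN+ LT-HSC, 40.5 ± 1.79 CPM in EMCN- LT-HSC and 0.898 ± 0.628 CPM in GMP (log2 fold changes 5.78 and 5.46, adjusted p = 1.39e-09 and 7.55e-09). Several KLF genes are themselves early response genes, and the immediate early sum overlapped between the LT-HSC fractions and was lowest in GMP, at 340 to 743 CPM in EMCN+ LT-HSC, 532 to 599 CPM in EMCN- LT-HSC and 158 to 335 CPM in GMP. Its part in the KLF differences was not tested.

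Between EMCN+ and EMCN- LT-HSC, 2 of the 66 tested genes of these 7 lists were called, both lower in EMCN+ LT-HSC, by edgeR, DESeq2 and limma-voom alike, and Tgfb1 was among them. With edgeR, 1.96% of all genes were called between the fractions, 1.19% of them as lower in EMCN+ LT-HSC when counted over all genes. Under total-count scaling more genes of each of the 7 lists were called higher in EMCN+ LT-HSC than in GMP, among them 11 of 11 upstream genes and 9 of 9 corepressors and coactivators. Most genes moved up under that scaling: the median of all genes was 0.863, and 82.7% of all genes called were higher. These list counts are therefore not a result about the lists. The share of all genes tested that was called higher under it is not given here. Of the genes called lower under TMM, Hdac2 (0.52) and Fkbp5 (0.34) in EMCN+ LT-HSC versus GMP and Tgfb1 in EMCN- LT-HSC versus GMP had a positive log2 fold change under total-count scaling.

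**Figure D5:**
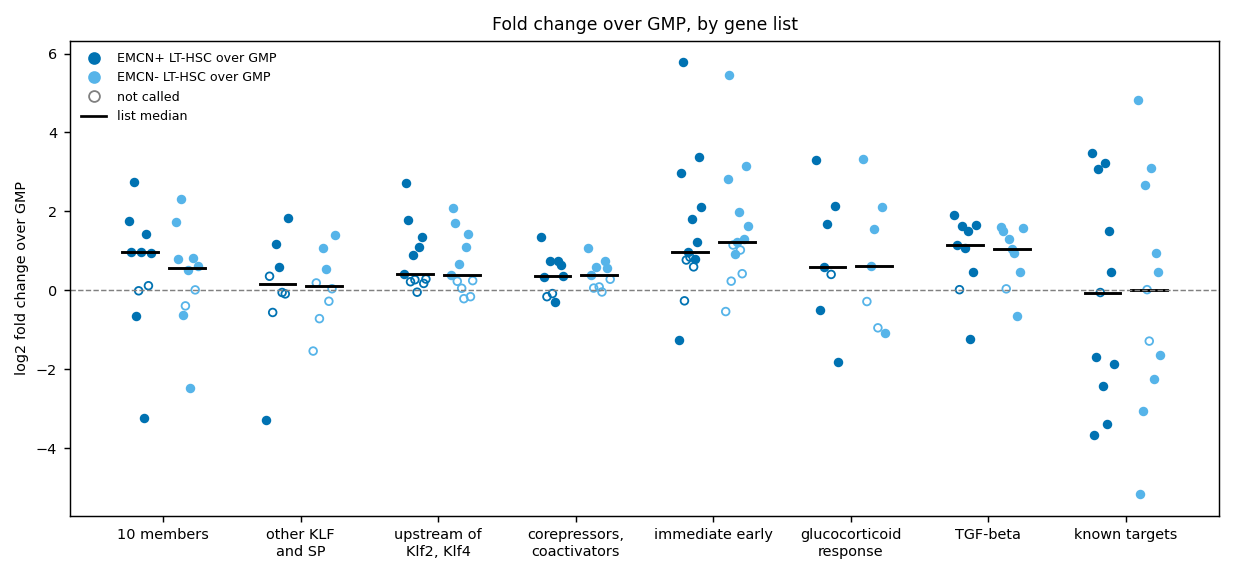
Log2 fold change over GMP of every tested gene of each list, with EMCN+ LT-HSC (dark) left of EMCN- LT-HSC (light); filled points have an adjusted p under 0.05 in edgeR with TMM scaling, and bars are list medians. The medians of the 10 members are 0.96 and 0.58, between those of the other KLF and SP genes (0.15 and 0.11) and of the TGF-beta genes (1.15 and 1.04).

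Likeness of pattern was measured as the root mean square distance between log2 CPM profiles over the 11 libraries, each centred on its own mean, against 9949 other genes (9950 for Klf2) of at least 5 CPM; smaller is more alike. Nearest to Klf12 were Efnb1 (0.15), Zfp608 and Nceh1, and nearest to Klf10 were Dpysl2 (0.15), Ypel1 and Extl3, where the median distance of all candidates was 1.26 and 0.94. Klf3 was nearest to Arf3 (0.12), Zbtb43 and Zcchc2, Klf6 to Fcho2 (0.17), Lratd2 and Tmem154, and Klf9 to Creb3l2 (0.14), Gltp and Zer1. For Klf4 the 3 nearest genes were all histone genes, H3c1 (0.29), H2bc4 and Hist1h2bq, against a median of 1.44. Klf13 was nearest to Dnajc13 (0.09), Slc29a1 and Sort1, Klf11 to Tcp11l1 (0.21), Ptpn4 and Zfp455, and, of the 3 genes nearest to Klf7, Creb1 was at 0.16 and Zfp280d at 0.16. Klf2 had the most distant nearest genes, Gramd3 (0.43), Pim3 and Fzr1. No other member was among the 3 nearest genes of any of the 10. With so many candidates this was likely for any small list, and it does not measure likeness between the members. The nearest genes lie below the median distance by selection.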

How the data were processed

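RNA of sorted EMCN+ LT-HSC (4 libraries), EMCN- LT-HSC (3) and GMP (4) was made into libraries with a stranded total RNA kit for low input and sequenced in pairs, per the labels' protocols. The labels nevertheless give the molecule as polyA RNA, and this conflict was not resolved. The authors deposited 1 estimated count per gene and library; cutadapt and Salmon are named in the submitters' processing notes. All values are whole numbers. Versions, genome build, annotation and any use of strand in counting are not given in the sources used here. The counts were rounded as a safeguard and fitted with edgeR 4.0.16 in R 4.3.3 over all 11 libraries: TMM factors, filterByExpr at a minimum count of 10 (14915 genes, 99.7% of counts), robust quasi-likelihood tests, Benjamini-Hochberg adjustment over all genes tested and a threshold of 0.05. This main fit had no term for the mouse. Log2 CPM used a prior count of 2.

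Coordinates and transcript lengths came from GENCODE M21 on GRCm38, which matched 54094 of 54347 identifiers (53307 with version), and promoters from RefSeq. Counts carry no molecular identifiers, so the bound below for a count of 0 covers counting error at most. Standard errors, intervals and adjusted p came from the fits over all libraries and include the spread between libraries. SDs were taken between the libraries of a group. A count of 0 allows up to 3 counts, or 0.209 to 0.705 CPM. Libraries of a group differed beyond sampling noise (chi-square per degree of freedom 8.09 to 33.6).

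Libraries with the same mouse number come from the same animal per the labels, which pairs the groups. Same-mouse deviations from the group means correlated at 0.165 to 0.223 between the LT-HSC fractions (3 pairs), 0.105 to 0.15 between EMCN- LT-HSC and GMP (3 pairs) and -0.0606 to 0.0613 between EMCN+ LT-HSC and GMP (4 pairs). For different mice the ranges were -0.246 to 0.19 (9 pairs), -0.168 to 0.0622 (9 pairs) and -0.172 to 0.16 (12 pairs), in the same order. The same-mouse range of EMCN+ LT-HSC and GMP thus lay within that of different mice, and the ranges between the LT-HSC fractions overlapped.

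Alternatives were DESeq2 1.42.0 (test and size factors), voom of limma 3.58.1, total-count scaling, other filters, a restriction to protein-coding genes, 2 groups alone, a mouse block and leaving out each library. The members, lists and tests were chosen with earlier results of these data known. All 10 members are named. Of each list, up to 4 called genes with the smallest p in a comparison could be named, and for each member the 3 genes nearest in pattern. Some genes that this rule names are not reported here.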

Additional observations from a re-analysis of the deposited data

Results flagged for a closer look

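Of 20 sets of replicate values examined for a single distant library (10 genes in EMCN+ LT-HSC and in GMP, 4 libraries each), 1 held one: Klf13 in EMCN+ LT-HSC. EMCN+ replicate 3 had 43.2 CPM against 51.2 to 52.4 CPM in the other EMCN+ LT-HSC libraries, a gap of 0.883 of the whole range on the log2 scale, above Dixon's critical value at the 95% level. Chance flags about 1 in 20 such sets, and the library lay on the same side of GMP as the others.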

How the results depend on the processing

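Of 657 values of the 10 genes under the alternatives, 610 kept their direction and their side of the threshold, and 17 of the 30 comparisons of a gene did so under all of them. A further 17 values changed side of the threshold and 30 changed sign, 28 of these in comparisons that were not called. Klf2 has no value with a minimum of 5 CPM in 3 libraries, which it did not pass. Klf13 reversed under total-count scaling, to 0.18 in EMCN+ LT-HSC versus GMP and 0.11 in EMCN- LT-HSC versus GMP. The uncalled sign changes were as follows. Klf2 in EMCN+ LT-HSC versus GMP was 0.0119 with DESeq2's size factors, 0.011 without the low-count filter, 0.0131 with DESeq2, 0.0931 with limma-voom, 0.0807 with the replicate block over complete pairs, 0.82 under total-count scaling and -0.31 to 0.29 when 1 library was left out; in EMCN- LT-HSC versus GMP it was 0.34 under total-count scaling. Klf7 was -0.0166 with limma-voom and -0.14 to 0.24 with 1 library left out in EMCN+ LT-HSC versus GMP. In EMCN- LT-HSC versus GMP Klf7 was -0.0351 with limma-voom, -0.0156 among protein-coding genes, -0.0192 with the replicate block over all libraries and -0.17 to 0.13 with 1 library left out. Between the LT-HSC fractions, Klf13 was 0.0791 under total-count scaling, 0.000928 with the replicate block over all libraries, 0.0176 with the replicate block over complete pairs and -0.0644 to 0.0321 with 1 library left out, and leaving out 1 library gave -0.15 to 0.28 for Klf7, -0.0760 to 0.13 for Klf10 and -0.0725 to 0.54 for Klf11. In EMCN+ versus EMCN- LT-HSC the number of members called was 1 (Klf6) instead of 0 under total-count scaling, without the low-count filter, with DESeq2, among protein-coding genes, with the 2 groups alone and with the replicate block over complete pairs. Leaving out 1 library gave 0 to 1 members (1 without GMP replicate 1, adjusted p of Klf6 0.0377), 8 in EMCN+ LT-HSC versus GMP and 7 to 8 in EMCN- LT-HSC versus GMP. For total-count scaling, the 2 groups alone and the fit without GMP replicate 1, the count of all genes called is not given here. The calls of Klf6 in those settings therefore have no background of their own. The count of all genes called between the LT-HSC fractions was 293, and 529 without the low-count filter, 451 with DESeq2, 465 among protein-coding genes and 55 (without EMCN- replicate 1) to 338 (without EMCN+ replicate 1) when 1 library was left out. It was 105 without EMCN+ replicate 2 and 184 to 194 without EMCN- replicate 2, EMCN+ replicate 4 or EMCN- replicate 4. Of these calls, 39.2% were higher in EMCN+ LT-HSC under TMM and 76.3% under total-count scaling. With the mouse as a block it was 374 over all libraries and 908 over the complete pairs, and of the members' calls the block changed those of Klf6 (called, complete pairs) and Klf11 (lost in EMCN- LT-HSC versus GMP, leaving 7). Klf11 was also lost there with limma-voom (adjusted p = 0.104). The longest transcript in place of the mean moved 26 of 30 levels per kilobase. The cause of these changes was not tested. The lowest counts of a member in a library were 4 for Klf4 and 8 for Klf2.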
